A study of Homo sapiens with 16 samples.

Results

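The transcripts described here encode NF-kB subunits and the proteins that feed back on them: the subunits NFKB1, NFKB2, REL, RELA and RELB, the inhibitors NFKBIA and NFKBIE, the brakes TNFAIP3 and TNIP1, and the NF-kB-induced ubiquitin ligase BIRC3. These 10 genes were chosen by name and by presence in all 4 of the authors' deposited tables, which held 23396 genes in any table and 19344 in all 4. A deposited table lists only genes with an adjusted p-value, so being listed, which depends on read counts, is the measured value on which the members were selected; no fold change entered that rule, but the names were picked with earlier results of these data known. All 10 were listed in each table, far from the low end, with base means between 634 and 9484 normalised counts where the lowest listed base means were 2.46 to 6.82.

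The libraries were made from poly(A) RNA of U2OS, a human osteosarcoma cell line with intact p53. Cells were transfected with siControl, the control siRNA, or with siRFX7, which targets the transcription factor RFX7, and each was treated for 24 h with the solvent DMSO or with Nutlin-3a at 10 µM, which stabilises p53 by keeping MDM2 from binding it. This gave 4 groups of 4 libraries, siControl with DMSO, siControl with Nutlin-3a, siRFX7 with DMSO and siRFX7 with Nutlin-3a. Every group carried a transfected siRNA and none was left untransfected; the siRNA sequences are not given in the sources used here. The labels do not say whether the 4 libraries of a group came from separate cultures, so p-values may measure only technical spread. In such bulk RNA, fewer cells with a transcript and less of it per cell cannot be told apart. The values used were the authors' comparisons of 2 groups, so errors are their standard errors (SE) for 4 libraries per group and no value of a single library is given.

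NF-kB transcription factors are dimers of the 5 subunits. RELA, RELB and REL carry transactivation domains, while NFKB1 and NFKB2 are made as long precursors, p105 and p100, that are processed to p50 and p52 and that can themselves hold dimers in the cytoplasm. In the canonical pathway the IkB proteins, among them NFKBIA (IkB-alpha) and NFKBIE (IkB-epsilon), retain the dimers until they are phosphorylated and degraded, and in the non-canonical pathway p100 is processed to release RELB dimers. NFKBIA, TNFAIP3 (the ubiquitin-editing enzyme A20), TNIP1 (ABIN1, an A20 partner that binds ubiquitin chains), NFKB2, RELB and BIRC3 (cIAP2) are themselves classical NF-kB targets, so their RNA serves as a readout of the pathway as well as part of its feedback.

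NFKB1 (ENSG00000109320) lies at chr4:102501329-102617302 on the plus strand in GENCODE 29 on GRCh38. NFKB2 (ENSG00000077150) lies at chr10:102394110-102402529 on the plus strand. REL (ENSG00000162924) lies at chr2:60881521-60931610 on the plus strand. RELA (ENSG00000173039) lies at chr11:65653596-65663094 on the minus strand. RELB (ENSG00000104856) lies at chr19:45001430-45038198 on the plus strand. NFKBIA (ENSG00000100906) lies at chr14:35401511-35404749 on the minus strand. NFKBIE (ENSG00000146232) lies at chr6:44258166-44265788 on the minus strand. TNFAIP3 (ENSG00000118503) lies at chr6:137867188-137883312 on the plus strand. TNIP1 (ENSG00000145901) lies at chr5:151029945-151093577 on the minus strand. BIRC3 (ENSG00000023445) lies at chr11:102317450-102339403 on the plus strand. All 10 are annotated as protein-coding genes.

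NF-kB is known to act on promoters of its own feedback genes, and the annotated promoters of the members were therefore searched for its consensus. Stretches with a match are shown because most members share this feature. RefSeq windows on GRCh38.p14 from 250 bases before to 50 after the annotated start were found for 8 of the 10 members, 13 windows in all. A match to the NF-kB consensus, a degenerate motif of 10 letters, on either strand was present in 8 of these windows and in 7 of the 8 genes, against 5.91% of 35116 promoter windows of the same length. RELA was the gene without a match, and RELB and NFKBIE had no window. The matches and 25 bases on each side follow, 5′ to 3′ on the gene's strand, with the matches in capitals.
TNFAIP3, chr6:137867167-137867238, plus strand: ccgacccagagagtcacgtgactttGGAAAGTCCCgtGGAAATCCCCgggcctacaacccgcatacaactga
NFKBIA, chr14:35404796-35404855, minus strand: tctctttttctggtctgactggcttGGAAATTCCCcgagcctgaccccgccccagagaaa
TNIP1, chr5:151081042-151081101, minus strand: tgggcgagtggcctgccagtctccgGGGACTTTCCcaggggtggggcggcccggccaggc
BIRC3, chr11:102317260-102317383, plus strand: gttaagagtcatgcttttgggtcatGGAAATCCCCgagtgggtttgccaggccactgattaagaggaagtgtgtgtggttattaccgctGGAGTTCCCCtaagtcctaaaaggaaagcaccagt
NFKB1, chr4:102501285-102501344, plus strand: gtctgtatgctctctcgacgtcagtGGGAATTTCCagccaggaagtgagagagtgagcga
NFKB2, chr10:102394446-102394534, plus strand: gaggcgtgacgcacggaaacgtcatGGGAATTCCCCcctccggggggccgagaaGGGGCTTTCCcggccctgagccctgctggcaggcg
REL, chr2:60881502-60881562, plus strand: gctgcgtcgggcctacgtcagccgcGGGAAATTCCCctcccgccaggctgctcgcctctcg

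With positions counted in bases from the RefSeq start of each window, TNFAIP3 holds matches at -67 and -55, NFKBIA at -81 and BIRC3 at -199 and -135. These starts can differ from the GENCODE gene bounds given above, and the matches of TNFAIP3, TNIP1, REL and NFKB2 lie inside those bounds. The match of TNIP1 lies at -42 and that of NFKB1 at -49, each in 1 of the gene's windows. In REL and in the NFKB2 window shown, matches on the plus and the minus strand overlap in the capital runs of 11 letters. NFKB2 has a further window, not shown, with matches at -176 and -21 from another annotated start. None of the 13 windows held the X-box, the element that RFX factors bind, which was found in 1.31% of all promoter windows. A match is only a string of letters in a window and was not tested for binding.

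**Figure D1:**
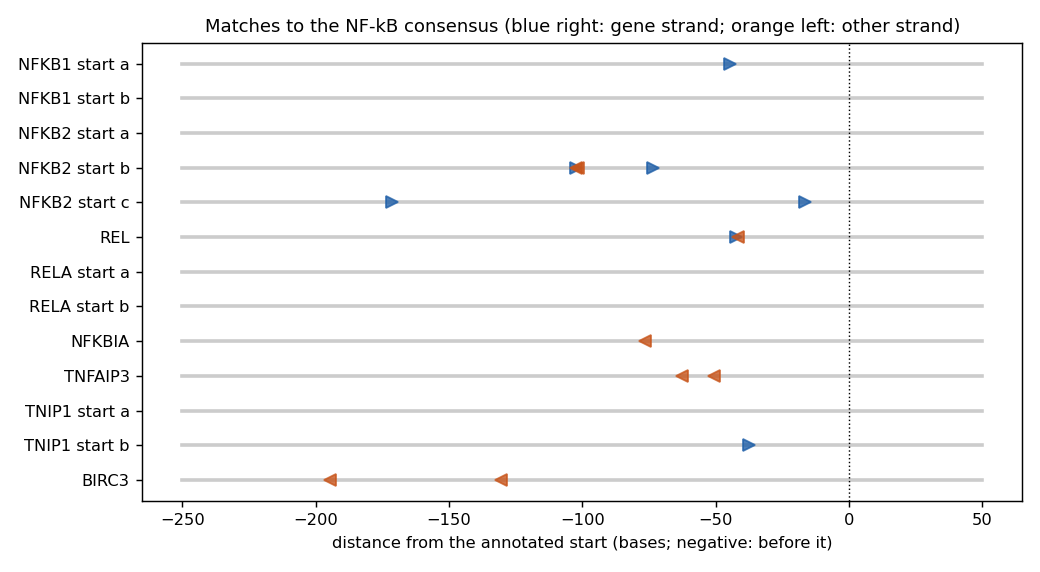
Positions of matches to the NF-kB consensus in the 13 promoter windows of 8 members, in bases from each annotated start (dotted line), with arrowheads for the strand of the match. Apart from NFKB2 and BIRC3, all matches lie between -81 and -42, and both RELA windows are empty.

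The sizes of the changes in 3 genes went with the labels in the authors' deposited tables. RFX7 was at 18.6% of its siControl level with siRFX7 under DMSO and at 19.4% under Nutlin-3a. With Nutlin-3a the p53 target CDKN1A rose on the log2 scale by 3.24 ± 0.04 (SE) in siControl and 2.98 ± 0.04 in siRFX7. The p53 target MDM2 rose by 2.89 ± 0.04 and 2.76 ± 0.04, so both rises were smaller in siRFX7. CDKN1A was also higher with siRFX7, at 0.60 ± 0.04 (DMSO) and 0.33 ± 0.04 (Nutlin-3a), while MDM2 was at -0.0009 and -0.13. The signs of these genes were used to settle the direction of the tables, so the signs are no check of the labels. Depth per library was not analysed here; the base means summed to 27946400 to 35311100 normalised counts across the tables. Of 8 osteoblast lineage markers, taken because U2OS is of bone origin, RUNX2, ALPL, COL1A1, SPARC and SPP1 were listed in all 4 of the authors' deposited tables, BGLAP was listed in 2 with a base mean of at most 4.25, and SP7 and IBSP were not listed. With siRFX7 under DMSO, 3 of the 5 were called higher and 1 lower. Of 8 markers of leukocytes, epithelium and endothelium, CD3E, LYZ and KRT5 were not listed and PTPRC, CD14, PECAM1 and CDH5 had base means of at most 8.07 in the authors' deposited tables. EPCAM, an epithelial adhesion molecule, had base means of 184 to 214 against at least 37048 for COL1A1, and the authors' deposited tables had it higher with siRFX7, by 0.54 ± 0.11 (SE, DMSO) and 0.41 ± 0.11 (Nutlin-3a); its part in the results below was not tested.

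Group means were rebuilt for each member from the deposited base mean and log2 fold change. Every group stands in 2 tables, and after the tables' overall scale was removed the rebuilt means of the members differed between tables by at most 0.0025 on the log2 scale. The siRFX7 groups were set on the scale of the siControl table through the fold change to siControl under the same treatment, since the tables were normalised separately. Divided by exon length (GENCODE 29), NFKB2 and TNIP1 stood highest and REL lowest. In siControl under DMSO the level per kb of exon was 2000.0 normalised counts for NFKB2, 1485 for TNIP1, 1142 for RELA, 1013 for NFKBIA and 809 for RELB. It was 458 for NFKB1, 419 for NFKBIE, 366 for BIRC3, 291 for TNFAIP3 and 66.1 for REL. A spread of these levels over libraries cannot be had from the tables, so neighbours in this order, such as NFKB1 and NFKBIE, were not tested against each other. REL's level is also less certain because 5702 bases of its exons are shared with the overlapping RNA AC010733.2 on the same strand. TNFAIP3 shares 95 bases with an antisense RNA. RELA shares 9 bases with a lincRNA. The library kit kept strand, but whether reads were counted by strand is not given in the sources used here.

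**Figure D2:**
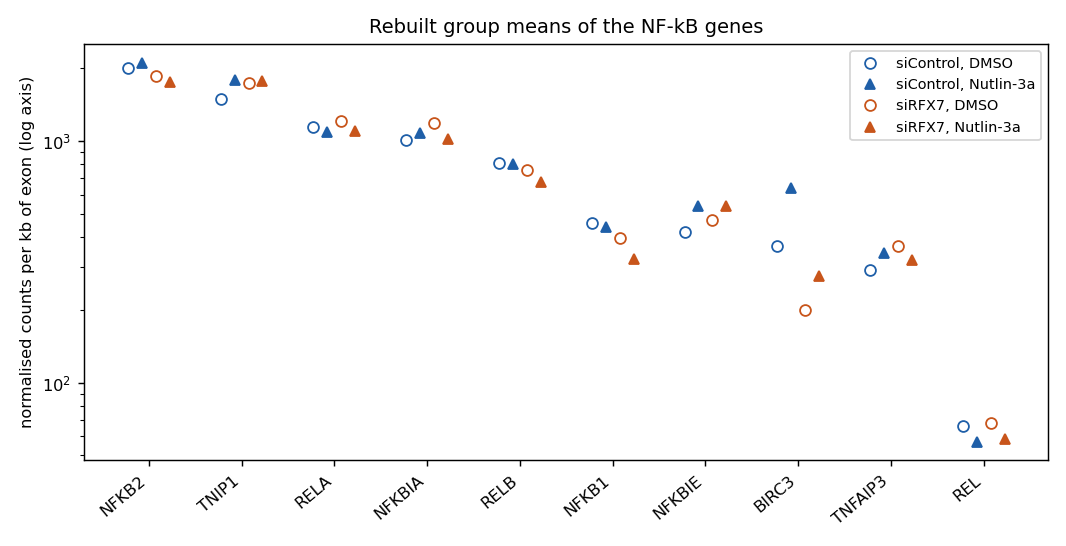
Rebuilt group means of the 10 genes, in normalised counts per kb of exon on a log axis, for the 4 groups (blue siControl, orange siRFX7; open circles DMSO, triangles Nutlin-3a). BIRC3 spans the widest range, from 200.2 in siRFX7 with DMSO to 636 in siControl with Nutlin-3a, while the 4 groups lie close together for most other genes.

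With siControl, most inhibitors and feedback genes were higher under Nutlin-3a and most subunits were not called. With Nutlin-3a in siControl, 4 of the 10 members were called higher (BIRC3, NFKBIE, TNIP1 and TNFAIP3) and 1 lower (REL) at the deposited adjusted p under 0.05. The authors' deposited table called higher 18.3% of its genes, called lower 19.6%, and 56.3% in either direction where the base mean was 100 or more, so 5 of 10 is near the share of all genes with such base means. The members' median was 0.08 on the log2 scale, against -0.03 for genes of that level.

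Among the subunits, REL fell by 0.21 ± 0.06 (SE, adjusted p 0.00342) on the log2 scale in the authors' deposited table, from 871 to 750.3 normalised counts. The other subunits did not pass: the authors' deposited table gave -0.06 ± 0.04 for NFKB1, 0.07 ± 0.04 for NFKB2, -0.07 ± 0.05 for RELA and -0.01 ± 0.04 for RELB, the last turning to 0.02 when all values were centred on the median gene. Among the inhibitors, NFKBIE rose by 0.36 ± 0.06 (adjusted p 6.08e-10) in the authors' deposited table, from 1081 to 1391 normalised counts, while NFKBIA was at 0.10 ± 0.05 (adjusted p 0.105). TNIP1 rose from 8605 to 10364 normalised counts, 0.27 ± 0.03 (adjusted p 9.66e-14), and TNFAIP3 from 1471 to 1729, 0.23 ± 0.05 (adjusted p 2.06e-05), in the authors' deposited table. BIRC3 had the largest response of the 10, from 2752 to 4783 normalised counts or 1.74-fold (log2 0.80 ± 0.06, adjusted p 9.84e-43, authors' deposited table). With centring on the median gene, which shifts values by 0.03, NFKBIA (adjusted p 0.0287) and NFKB2 (adjusted p 0.0250) also passed, at 0.12 and 0.10.

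With siRFX7, the same treatment went with lower RNA of most members. With Nutlin-3a in siRFX7, 7 members were called lower (NFKB1, NFKB2, REL, RELA, RELB, NFKBIA and TNFAIP3) and 2 higher (BIRC3 and NFKBIE), with TNIP1 not called. The authors' deposited table called 20.3% of all genes lower, 18.7% higher and, for base means of 100 or more, 56.3% in either direction. The members' median was -0.15 on the log2 scale, against -0.03 for genes of that level.

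All 5 subunits were in the lower direction. NFKB1 fell by 0.29 ± 0.05 (SE, adjusted p 3.37e-09) in the authors' deposited table, from 2483 to 2026 rebuilt normalised counts. REL was at -0.23 ± 0.07, RELB at -0.16 ± 0.05, RELA at -0.14 ± 0.05 and NFKB2 at -0.08 ± 0.03 in the authors' deposited table. The calls of RELA and NFKB2 did not survive centring on the median gene (adjusted p 0.0805 and 0.174). NFKBIA went from 2812 to 2415 normalised counts, a log2 fold change of -0.22 ± 0.05 (adjusted p 2.13e-05) in the authors' deposited table, and TNFAIP3 from 1856 to 1630, -0.19 ± 0.06 (adjusted p 0.00465). TNIP1, at 10028 and 10296 normalised counts, had 0.04 ± 0.03 (adjusted p 0.442) in the authors' deposited table. The genes that still rose in the authors' deposited table were NFKBIE, by 0.20 ± 0.06 (adjusted p 0.00325), and BIRC3, by 0.47 ± 0.06 (adjusted p 3.10e-12), which is 1.38-fold.

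**Figure D3:**
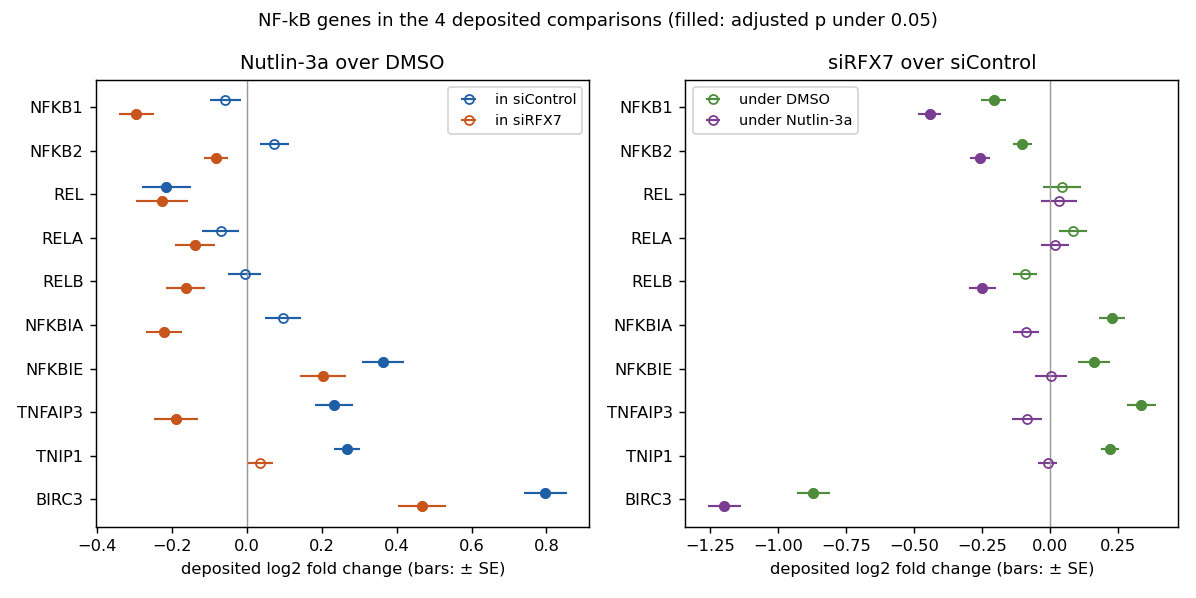
Deposited log2 fold changes (x axis, bars ± SE) of the 10 genes for Nutlin-3a over DMSO in siControl and siRFX7 (left) and for siRFX7 over siControl under DMSO and Nutlin-3a (right), filled where the adjusted p is under 0.05. TNFAIP3 lies on opposite sides of 0 in the left panel, at 0.23 and -0.19, and BIRC3 is the lowest gene in the right panel, at -0.87 and -1.20.

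Whether the Nutlin-3a response differed between the siRNAs was tested directly, as the log2 response in siRFX7 minus that in siControl, a difference of comparisons that share no library. All 10 differences were below 0, and 5 passed a Benjamini-Hochberg adjusted p of 0.05 (two-sided normal test over 21339 genes): TNFAIP3, BIRC3, NFKBIA, NFKB1 and TNIP1. Of all genes tested, the response in siRFX7 was called lower for 0.764% and higher for 0.173%, and for 1.45% in either direction where the base mean was 100 or more. The median difference of the 10 was -0.20, against -0.0006 for genes of that level, of which 50.3% were below 0. The 10 genes were named with the responses known, so this count is a description of them.

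TNFAIP3, the A20 brake, had the largest difference, -0.42 ± 0.08 (SE, adjusted p 2.61e-05): it rose with Nutlin-3a in siControl and fell in siRFX7. NFKBIA differed by -0.32 ± 0.07 (adjusted p 0.000924), between a response that was not called in siControl and a fall in siRFX7. TNIP1 differed by -0.23 ± 0.05 (adjusted p 0.000551), with a called rise in siControl and no call in siRFX7. BIRC3 rose under both siRNAs, but less in siRFX7, with a difference of -0.33 ± 0.09 (adjusted p 0.0175). NFKB1 differed by -0.24 ± 0.06 (adjusted p 0.0221), with a fall in siRFX7 alone called. The calls of BIRC3 and NFKB1 were lost when the test statistics were scaled by a robust SD among genes of similar base mean (adjusted p 0.126 and 0.157), and those of NFKBIA, BIRC3 and NFKB1 with Holm's adjustment (0.0626 for NFKBIA).

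For the other 5 members the difference did not pass, which does not show that their responses were alike. The 95% interval, not adjusted for the number of genes, ran from -0.26 to -0.06 for NFKB2 and from -0.29 to -0.02 for RELB, both wholly below 0. For NFKBIE it ran from -0.32 to 0.002, just past 0. It ran from -0.21 to 0.07 for RELA and from -0.199 to 0.17 for REL. The 5 members called here all hold a match to the NF-kB consensus in a promoter window printed above, as do NFKB2 and REL, which were not called. Of the others not called, RELA had no match, and RELB and NFKBIE had no window to search. Since 7 of the 8 members with a window hold a match, this overlap says nothing about the calls.

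**Figure D4:**
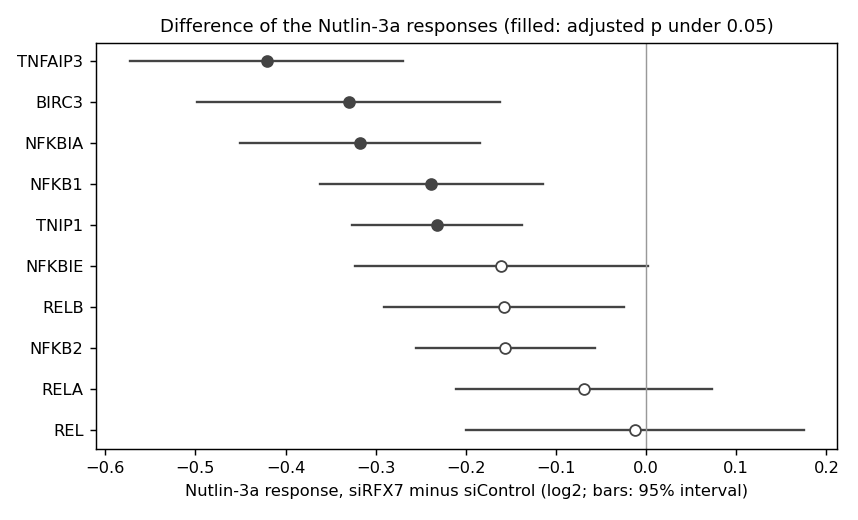
Difference of the Nutlin-3a responses, siRFX7 minus siControl on the log2 scale, with 95% intervals for the 10 genes (filled where the adjusted p is under 0.05). All points lie below 0, from -0.42 for TNFAIP3 to -0.01 for REL, and the intervals of NFKBIE, RELA and REL reach past 0.

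The same data read as the effect of the knockdown show inhibitors and brakes above siControl under DMSO and no such call under Nutlin-3a. These comparisons use the same 16 libraries as those above, so they are another view and no separate evidence. Under DMSO, siRFX7 went with 4 members called higher (TNFAIP3, NFKBIA, TNIP1 and NFKBIE) and 3 lower (BIRC3, NFKB1 and NFKB2). Of all genes listed there, 19.9% were called higher, 17.5% lower and, for base means of 100 or more, 49.7% in either direction, as counted from the authors' deposited table. Under Nutlin-3a no member was called higher and 4 were called lower (BIRC3, NFKB1, NFKB2 and RELB), where the authors' deposited table called 17.2% of genes higher, 15.4% lower and 45.3% in either direction at that base mean. The median of the 10 was 0.06 under DMSO, and it was -0.09 with Nutlin-3a present.

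TNFAIP3 was 26.2% above siControl under DMSO, at 0.34 ± 0.05 (SE, adjusted p 8.24e-09), and at -0.08 ± 0.05 (adjusted p 0.246) when Nutlin-3a was added, from the authors' deposited tables. NFKBIA was 17.0% above siControl under DMSO (0.23 ± 0.05, adjusted p 9.65e-06), and at -0.09 ± 0.05 (adjusted p 0.167) with Nutlin-3a, both given in the authors' deposited tables. TNIP1 was 16.5% above under DMSO (0.22 ± 0.03, adjusted p 1.89e-09) and at -0.01 ± 0.03 with Nutlin-3a, as the authors' deposited tables give it. NFKBIE was 11.9% above under DMSO (0.16 ± 0.06, adjusted p 0.0213) in the authors' deposited tables and at 0.003 ± 0.06 with Nutlin-3a, where centring turned the latter to -0.0080. These 4 genes thus stood higher with siRFX7 under DMSO, and under Nutlin-3a no difference between the siRNAs was called.

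Of the 5 subunits, NFKB1 and NFKB2 were called lower under both treatments, RELB under Nutlin-3a, and RELA and REL under neither. In the authors' deposited tables NFKB1 was lower with siRFX7 under DMSO (-0.21 ± 0.05, adjusted p 3.23e-05) and again under Nutlin-3a (-0.44 ± 0.04, adjusted p 8.33e-23), the latter 0.735 of the siControl level. NFKB2 was at -0.10 ± 0.03 (adjusted p 0.0109) and -0.26 ± 0.04 (adjusted p 1.05e-10) in the authors' deposited tables. RELB, the partner of p52, was at -0.09 ± 0.04 (adjusted p 0.0927) and -0.25 ± 0.05 (adjusted p 7.22e-06) in the authors' deposited tables, and its value under DMSO passed after centring (adjusted p 0.0490). RELA, the main transactivating subunit, was at 0.08 ± 0.05 and 0.02 ± 0.05, and REL at 0.04 ± 0.07 and 0.03 ± 0.07 in the authors' deposited tables, with no call for either.

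BIRC3 had the largest change of the 10 in each of the 4 comparisons. With siRFX7 it was at 0.547 of its siControl level under DMSO (log2 -0.87 ± 0.06, adjusted p 3.99e-46) and at 0.435 under Nutlin-3a (-1.20 ± 0.06, adjusted p 3.44e-85) in the authors' deposited tables. Its rebuilt means were 2752 and 4783 normalised counts in siControl and 1505 and 2083 in siRFX7, under DMSO and Nutlin-3a. The level in siRFX7 with Nutlin-3a was thus below that in siControl with DMSO.

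The 3′ UTRs of the members were searched for a pair of short words that an earlier scan of these same fold changes had picked out. These were the heptamer GTATCTA, from genes lower with siRFX7, and the hexamer GACGTA, from genes higher with it, so a match is not independent of the values. Of 19104 genes with a 3′ UTR in GENCODE 29, 7.53% carried the heptamer and 4.496% the hexamer; at a base mean of at least 100 the shares were 8.698% and 5.28% of 11071 genes. The heptamer was present in BIRC3, NFKB1 and REL, the hexamer in TNFAIP3 and REL, and neither in the other 6 members. The sites of the members that differed between siRNAs are shown with the word in capitals.
BIRC3: tatttatatatGTATCTAaaccatatgaa
NFKB1: acttacagataGTATCTAgcaatcacaac
TNFAIP3: cagggaaaatgGACGTAttcagagagtg

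These carriers include the members with the lowest values under siRFX7, BIRC3 and NFKB1, and the member with the highest under DMSO, TNFAIP3. Since the words were picked from these same fold changes, such matches repeat that choice and lend the words no support. REL carries both words in a 3′ UTR of 9075 bases, the heptamer at position 7946, and was not called under either treatment. Of those without the heptamer, NFKB2 and RELB were also called lower with siRFX7 under Nutlin-3a. NFKBIA, TNIP1 and NFKBIE, called higher with siRFX7 under DMSO, carry no hexamer. The part of these words in the members' values was not tested.

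Beyond the 10 members, the pathway was described with 4 lists. Among receptors and adaptors, 18 of 19 genes were measured; Nutlin-3a went with 9 called higher and 2 lower in siControl and with 10 and 2 in siRFX7, near the 56.3% of genes with base means of 100 or more called in either comparison. TLR3, a sensor of double-stranded RNA, was the highest of these, and the authors' deposited tables gave it 1.52 ± 0.08 (SE) with siControl, 1.45 ± 0.10 with siRFX7. The difference of the responses was called for 1 of the 18, against 1.45% of genes with base means of 100 or more. It was TRAF1, an adaptor of TNF receptors, which differed by -0.45 ± 0.08 (adjusted p 2.19e-05). The authors' deposited tables gave TRAF1 responses of 1.13 ± 0.05 with siControl, 0.68 ± 0.07 with siRFX7. TRAF1 is named here after its values were seen. The list's median difference was -0.03.

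For the IKK kinases and their ubiquitin machinery, the difference was called for 0 of 18 genes, against 1.45% of genes with base means of 100 or more, so few calls would be seen in any list of this size. The list had a median of -0.002 and a range from -0.14 to 0.10. With siRFX7 itself, 6 of these were called higher and 4 lower under DMSO, and 6 and 3 under Nutlin-3a, near the 49.7% and 45.3% called among genes with base means of 100 or more. UBE2N, the ubiquitin-conjugating enzyme for K63-linked chains, was the lowest in the authors' deposited table for DMSO at -0.68 ± 0.05 (adjusted p 6.71e-47). TAB3, a subunit of the TAK1 kinase complex, was at 0.45 ± 0.06 (adjusted p 1.82e-14), and BTRC, the F-box protein that recognises phosphorylated IkB, at 0.41 ± 0.05 (adjusted p 2.56e-17) in that authors' deposited table.

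All 16 other IkB proteins and brakes were measured. The difference of the responses was called for 1 of the 16, against 1.45% of genes with base means of 100 or more. It was PDLIM2, a ubiquitin ligase for nuclear RELA, which responded more in siRFX7 (difference 0.30 ± 0.08, adjusted p 0.0189). The list's median difference was -0.07. NFKBID, a nuclear IkB protein, fell with Nutlin-3a in siControl by 0.63 ± 0.09 (adjusted p 6.41e-12) in the authors' deposited table. NKIRAS1, a small GTPase that binds IkB, was lower with siRFX7 in the authors' deposited tables, at -0.87 ± 0.12 (DMSO) and -0.85 ± 0.11 (Nutlin-3a).

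Of 38 textbook NF-kB targets, 34 entered the test of the difference. Their response was called lower in siRFX7 for 7 and higher for 0, against 0.764% and 0.173% of all genes, with a median difference of -0.20 and 30 of 34 values below 0. At base means of 100 or more, as 26 of the 34 had, 1.45% of genes were called in either direction. The list was chosen with earlier results of these data known, so the count of 7 is a description of it. The 7 were CCL20, LTB, CXCL8, C3, CCL2, IER3 and IRF1, and the lowest with a base mean over 100 were CCL20 (-1.08 ± 0.24, adjusted p 0.00133), LTB (-0.83 ± 0.19, adjusted p 0.00201) and CXCL8 (-0.75 ± 0.16, adjusted p 0.00140). CXCL8, a neutrophil chemokine, had Nutlin-3a responses of -0.76 ± 0.11 (SE) with siControl, -1.51 ± 0.12 with siRFX7, both from the authors' deposited tables. LTB, lymphotoxin beta, which signals to the non-canonical pathway, had -0.66 ± 0.12 and -1.49 ± 0.14 there, per the authors' deposited tables. IL1A, an inflammatory cytokine, rose under both siRNAs, with 1.596 ± 0.17 for siControl, 1.59 ± 0.16 for siRFX7 per the authors' deposited tables. Its difference was not called and had a 95% interval from -0.45 to 0.44. TAP1, also on this list, rose with Nutlin-3a in siRFX7 by 0.96 ± 0.05 (adjusted p 9.51e-78) in the authors' deposited table. The difference for TAP1 was 0.08 ± 0.07 and was not called.

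With siRFX7 under Nutlin-3a, 18 of 34 targets were called lower and 4 higher, with a median of -0.25; under DMSO 5 were lower and 11 higher, with a median of 0.04. Of all genes, 15.4% were called lower and 17.2% higher under Nutlin-3a, and 17.5% lower and 19.9% higher under DMSO. Base means of 100 or more were reached by 25 of the 34 targets. Among all genes of that level, 45.3% were called in either direction under Nutlin-3a and 49.7% under DMSO. The number called under DMSO is near that share, but the counts of targets also include those below that level. The lowest under Nutlin-3a was SAA1, an acute phase protein whose near-identical copy SAA2 can share its reads, at -2.51 ± 0.11 (SE) in the authors' deposited table, followed by C3, the central complement component, at -0.87 ± 0.10. SAA1 was also lower under DMSO, at -2.15 ± 0.12 in the authors' deposited table. With Nutlin-3a, C3 rose by 1.397 ± 0.10 (siControl) and 0.71 ± 0.14 (siRFX7) per the authors' deposited tables.

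**Figure D5:**
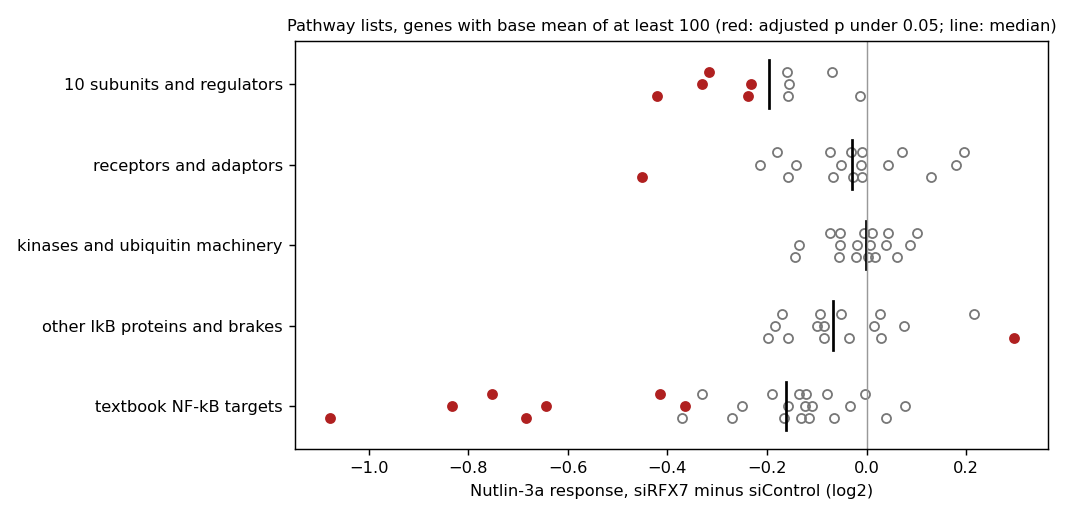
Difference of the Nutlin-3a responses (log2, siRFX7 minus siControl) for the 10 members and the genes of the 4 pathway lists whose base mean was 100 or more, red where the adjusted p is under 0.05, with a line at each list's median. The medians of the members and of the 26 targets shown lie at -0.20 and -0.16, and that of the 18 kinases and ubiquitin enzymes at -0.002.

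Genes with the most similar pattern were sought for NFKBIA, TNFAIP3 and BIRC3, as the smallest Euclidean distance over the 4 log2 fold changes among 12176 genes; these comparisons share libraries, and the distances carry no test. For NFKBIA the nearest were SLC12A7 (distance 0.07), C3orf52 (0.08) and NARF (0.09). For TNFAIP3 they were RPL35P5 (0.10), a pseudogene whose reads may come from its parent gene, FAM117B (0.14) and EFNA1 (0.16), which is on the list of NF-kB targets. BIRC3 had no neighbour as near: NAT16 (0.28), PDCD4 (0.296) and TPRG1L (0.35) were the closest. The distance is not scaled to the size of the changes, which were the largest of the members for BIRC3. In the authors' deposited tables the Nutlin-3a responses in siControl and siRFX7 were 0.71 and 0.64 for NAT16. They were 0.50 and 0.44 for TPRG1L, and 0.80 and 0.47 for BIRC3. The authors' deposited tables gave PDCD4, a translation inhibitor, Nutlin-3a responses of 0.99 (siControl) and 0.39 (siRFX7), and knockdown values of -0.796 (DMSO) and -1.40 (Nutlin-3a).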

How the data were processed

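Poly(A) RNA of 16 U2OS libraries was sequenced in 4 groups of 4, assigned from the sample titles. Per the submitters' processing notes, hg38, featureCounts 1.6.5 and DESeq2 1.20.0 were among the builds and tools used; the aligner and annotation are not given in the sources used here. Per the file headers, the 4 deposited tables are DESeq2 results between 2 groups each. The authors' base mean is a signal: counts divided by size factors, averaged over both groups compared. The deposited log2 fold changes and SEs, the deposited Wald statistic (a score) and the deposited p-value and adjusted p-value were used as given. The deposited adjusted p equalled Benjamini-Hochberg over exactly the listed genes, to within 1.4988e-15.

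The difference of the Nutlin-3a responses across 21339 genes was computed from the deposited values as a difference of log2 fold changes, with the root of the summed squared SEs, a two-sided normal test and Benjamini-Hochberg adjustment. The step was tested on simulated data with normal errors of the deposited SEs. That checks the computation and cannot show whether those SEs suit the real data. For 19344 genes in all 4 tables it equalled the difference taken from the siRFX7 tables with an SD of 0.00291. Calls used an adjusted p under 0.05. Group means were rebuilt as 2 group means whose average is the base mean and whose ratio is the fold change. Positions, exon lengths and 3′ UTRs came from GENCODE 29 on GRCh38, the genome that hg38 names, and promoters from RefSeq on GRCh38.p14.

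The members, lists and tests were chosen with earlier results of these data known. Named genes were the 10 members, RFX7, CDKN1A, MDM2, per comparison the 3 highest and 3 lowest called genes of the pathway lists with a base mean of at least 100, and the 3 nearest genes of NFKBIA, TNFAIP3 and BIRC3; TRAF1, IER3 and IRF1 were named after their values were seen. Software was Python 3.11.15, pandas 2.3.3, numpy 2.4.6, scipy 1.17.1 and matplotlib 3.10.9.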

Additional observations from a re-analysis of the deposited data

Results flagged for a closer look

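The response to Nutlin-3a differed between siRFX7 and siControl for 5 of the 10 genes by the test of the difference itself, all with a lower response in siRFX7, where 0.764% of all genes tested were called lower and 1.45% in either direction at base means of 100 or more. The differences on the log2 scale were -0.42 for TNFAIP3, -0.33 for BIRC3, -0.32 for NFKBIA, -0.24 for NFKB1 and -0.23 for TNIP1. The calls of BIRC3 and NFKB1 were lost at an adjusted p threshold of 0.01, with Holm's adjustment and with the robust SD, and that of NFKBIA with Holm's adjustment. Those of NFKB1 and TNIP1 did not reach a size of 0.25.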

How the results depend on the processing

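No paired analysis was possible because the tables hold no values of single libraries; for the same reason leaving out each replicate was not run. The members called of 10 were 5 (Nutlin-3a, siControl), 9 (Nutlin-3a, siRFX7), 7 (knockdown, DMSO), 4 (knockdown, Nutlin-3a) and 5 (difference of responses). With Holm's adjustment the counts were 3, 2, 4, 4 and 2, and with a size of at least 0.25 on the log2 scale 3, 2, 2, 3 and 3. At an adjusted p threshold of 0.01 the count for the difference was 3, as it was with statistics divided by their robust SD (0.727 to 1.24 over 20 bins of base mean). None of these rules changes a log2 value. The first 3 can only remove calls, while scaling by the robust SD shrinks some statistics and enlarges others. Holm's adjustment left the knockdown count under Nutlin-3a as it was. Centring on the median gene gave 7, 7, 8, 4 and 5, and changed the sign of RELB with Nutlin-3a in siControl (to 0.022) and of NFKBIE with siRFX7 under Nutlin-3a (to -0.0080), neither of them called. Adjusting again over base means of 100 or more, or taking the difference from the siRFX7 tables, changed no member's call. The latter contrasts the same 4 groups, and the 2 routes differed with an SD of only 0.00291, so it is no separate check. With Holm's adjustment the calls over all genes went from 8853 to 4241, 8355 to 3977, 7288 to 2867 and 6625 to 2448 in the first 4 comparisons, and with the size minimum from 7288 to 4501 and 6625 to 4020 for the knockdown. Over all genes the count for the difference was 200, against 65 with Holm's adjustment, 125 at 0.01 and 135 with the robust SD. The members' SEs were 0.03 to 0.07 in the deposited comparisons and 0.048 to 0.095 for the difference, and differences small beside these could not be detected.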
